A study of Mus musculus with 8 samples.

Results

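The genes that encode collagen chains were followed across RNA sequencing libraries of osteoblastic cells from mouse long bones. Members were all genes of the expression table with a symbol of the form Col, number, a, number, which gave 43 of the 17068 genes listed. The cells came from female C57BL/6J mice of about 10 weeks. The leukemic group (4 libraries) was from mice with BCR-ABL+ B-ALL, a B-cell acute lymphoblastic leukemia driven by the BCR-ABL fusion kinase, and the control group (4 libraries) was from healthy mice. Bones were digested with collagenase IV, and the cells were sorted by FACS and not cultured. The labels do not say how the leukemia was established, which gate was used, or whether each library came from its own mouse. Any p-value here therefore rests on the spread among the deposited libraries, which may be technical. Values are FPKM, fragment counts corrected for transcript length and library total. Between genes they compare only roughly, since the libraries still differed in how level went with transcript length (given below). Between libraries they also compare only roughly, since their sum over all genes ran from 456191 to 632055. The sequencing depth behind the values is unknown.

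Collagens are secreted as trimers of chains wound into a triple helix, and a trimer can hold copies of 1 chain or of several. The fibrillar collagens form the cross-banded fibrils of connective tissue, with type I in bone, tendon and skin, and type II, with types IX and XI, in cartilage. Osteoblasts, the cells that lay down bone, make type I collagen as the bulk of their matrix, with type V on the same fibrils. Type X is made by hypertrophic chondrocytes, the cells at the face of growth-plate cartilage that bone replaces. Network collagens form sheets such as the basement membrane, FACIT collagens (fibril-associated, with interrupted triple helices) sit on fibrils, and beaded-filament collagens form microfibrils around cells.

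The stretch before the start site is shown for 5 chains on which the results below turn. Each runs 5′ to 3′ on the + strand, from 250 bases before the RefSeq start site to 10 bases from it on (GRCm38.p6, 260 bases in all), with matches to 4 motifs on either strand in capitals. The motifs were the TATA box (TATAAA), the CCAAT box (CCAAT), the GC box (GGGCGG) and the cyclic AMP response element (TGACGTCA), and they and the window were chosen after the sequences had been seen. The first pair are fibrillar chains of bone, Col1a2 at chr6:4505368-4505627 and Col24a1 at chr3:145292222-145292481.
Col1a2: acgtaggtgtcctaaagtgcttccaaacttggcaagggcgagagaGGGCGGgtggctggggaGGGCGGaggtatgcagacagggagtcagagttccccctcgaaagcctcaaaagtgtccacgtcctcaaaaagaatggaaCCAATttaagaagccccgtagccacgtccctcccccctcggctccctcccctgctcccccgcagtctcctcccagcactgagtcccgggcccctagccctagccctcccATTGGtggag
Col24a1: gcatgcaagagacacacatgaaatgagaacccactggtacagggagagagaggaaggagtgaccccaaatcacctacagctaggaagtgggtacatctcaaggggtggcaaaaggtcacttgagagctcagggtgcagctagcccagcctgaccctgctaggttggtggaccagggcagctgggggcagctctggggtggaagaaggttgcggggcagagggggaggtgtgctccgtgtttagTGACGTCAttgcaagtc
The other three are chains of cartilage whose levels parted from each other in the libraries, Col10a1 at chr10:34389731-34389990, Col9a1 at chr1:24177360-24177619 and Col9a2 at chr4:121039316-121039575.
Col10a1: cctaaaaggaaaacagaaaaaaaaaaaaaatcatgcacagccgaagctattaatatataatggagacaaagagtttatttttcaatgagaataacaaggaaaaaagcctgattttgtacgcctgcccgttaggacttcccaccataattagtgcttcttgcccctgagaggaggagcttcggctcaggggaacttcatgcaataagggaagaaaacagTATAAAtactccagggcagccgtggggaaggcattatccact
Col9a1: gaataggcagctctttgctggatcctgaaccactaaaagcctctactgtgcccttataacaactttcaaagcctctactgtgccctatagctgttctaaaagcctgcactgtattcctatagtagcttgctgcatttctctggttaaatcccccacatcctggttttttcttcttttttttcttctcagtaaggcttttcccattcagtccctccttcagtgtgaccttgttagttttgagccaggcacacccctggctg
Col9a2: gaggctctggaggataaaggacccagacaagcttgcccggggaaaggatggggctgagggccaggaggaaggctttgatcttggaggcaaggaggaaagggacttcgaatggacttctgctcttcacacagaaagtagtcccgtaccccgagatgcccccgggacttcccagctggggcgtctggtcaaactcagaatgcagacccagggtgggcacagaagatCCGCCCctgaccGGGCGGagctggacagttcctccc
Col1a2 held CCAAT boxes 109 bases before the start site and at the site itself, with GC boxes 205 and 188 bases before it. Col24a1 held the only cyclic AMP response element, beginning 7 bases before its start site, among the 34 of 43 chains with a RefSeq window here, which are not the same 34 as those tested below. The same motif was in 1.67% of all 32851 windows. Col10a1 had a TATA box 32 bases before its start site, a motif found in 5 of the 34 chains and 12.7% of all windows. Col9a2 held GC boxes 26 and 14 bases before its start site, whereas Col9a1, a partner in the same trimer, matched none of the motifs. GC boxes were in 19 of the 34 chains and 33.4% of all windows, and CCAAT boxes in 11 of the 34 and 34.6%. A match is a string of letters and was not tested as a binding site.

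Collagen was among the most abundant products of these cells. Averaged over all 8 libraries, 3 chains stood far above the rest: Col1a1 at 7077 FPKM, Col2a1 at 6324 FPKM and Col1a2 at 4815 FPKM, which ranked 7, 9 and 12 among all genes. Another 9 chains had a mean of at least 100 FPKM, 12 lay from 10 to under 100, 10 from 1 to under 10, and 9 under 1 FPKM. The high level of Col2a1, the cartilage chain, in cells labelled osteoblastic was common to both groups. Col1a1, Col1a2 and Col2a1 together made up 77.1% to 82.4% of collagen FPKM in each library. Fibrillar chains of all kinds made up 82.7% to 87.7%.

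**Figure D1:**
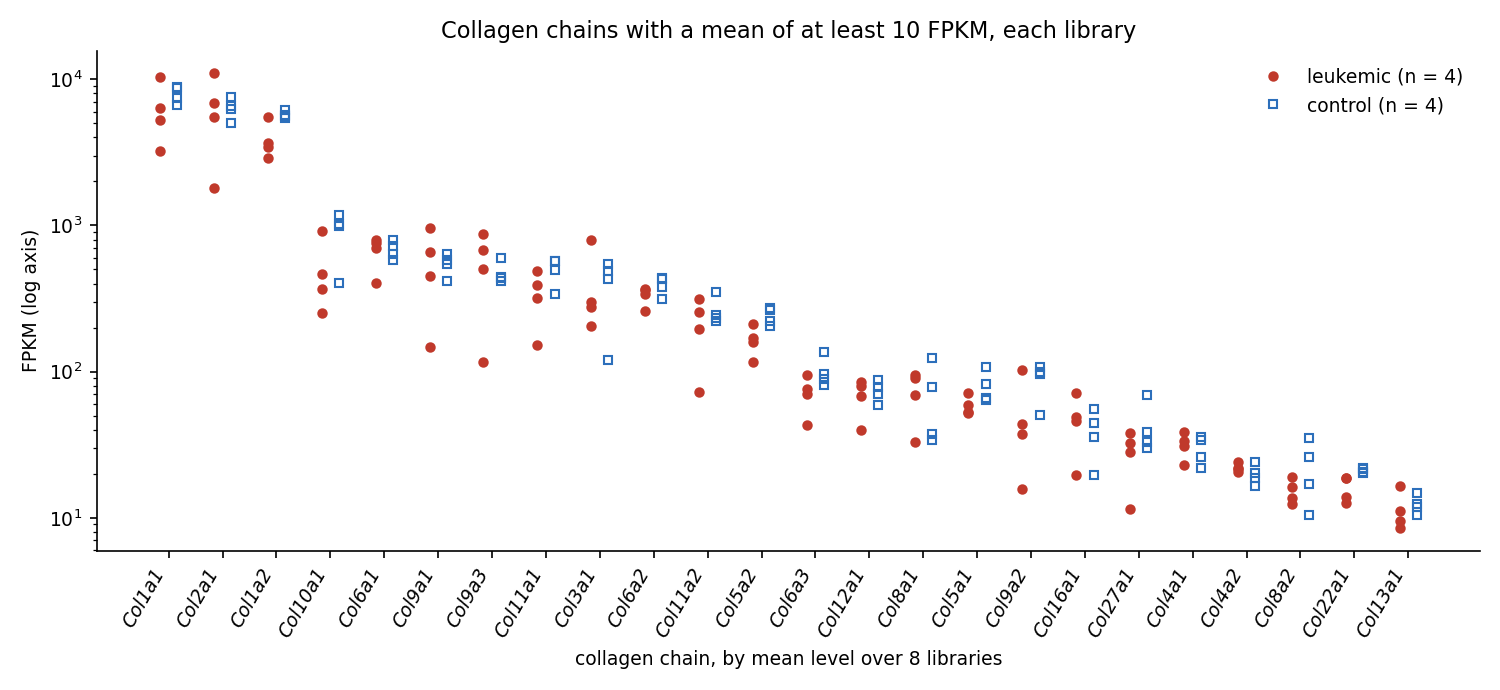
Level of the 24 collagen chains with a mean of at least 10 FPKM in each library, on a log axis, with leukemic libraries as filled circles and control libraries as open squares (4 each). Col1a1, Col2a1 and Col1a2 lie apart from the other chains, and the groups overlap for each chain shown other than Col22a1.

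The labels were checked against markers of the cell type. All 7 osteoblast markers listed, among them Sp7 and Bglap, were detected in every library at 14.99 FPKM or more. Chondrocyte markers were also high, with Cnmd between 1715 and 5399 FPKM in leukemic libraries and between 1888 and 3175 FPKM in control libraries. Endothelial markers were near 0, with a sum over 6 genes of 0.08 to 1.76 FPKM in leukemic libraries and 0.79 to 1.81 FPKM in control libraries. The sum of 6 Schwann cell markers was 83.1 to 113 FPKM in leukemic libraries and 60.8 to 85.0 FPKM in control libraries. That of 7 leukocyte markers, most of it Lyz2, was 119, 132, 78.8 and 46.3 FPKM in leukemic libraries 1 to 4 and 46.9 to 55.2 FPKM in control libraries, so it was highest in leukemic libraries 1 and 2. That of 5 markers of pericytes and smooth muscle was 123 to 209.7 FPKM in leukemic libraries and 124 to 235 FPKM in control libraries. Leukemic library 2 stood apart within its group. It had the lowest value of the 8 libraries for 20 of the 34 chains tested, while its summed FPKM over all genes was the highest at 632055, against 456191 to 563793 in the other leukemic libraries and 477127 to 500933 in control libraries. In sorted bulk RNA, fewer cells of a type and less RNA per cell cannot be told apart, and this holds for each difference given here.

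As a family, the chains were lower on average in leukemic cells, but no single chain passed the test. Of the 34 chains that reached 1 FPKM in 4 or more libraries, 25 (73.5%) had a lower leukemic mean on the log2(FPKM + 1) scale, beside 53.6% of the 11214 genes tested. The median difference of the chains, leukemic minus control, was -0.21, beside -0.03 for all genes tested. By class, the lower leukemic mean was found in 10 of 11 fibrillar chains (median -0.48), 7 of 8 FACIT chains (median -0.20) and 3 of 3 beaded-filament chains (median -0.23), but in 2 of 6 network chains (median 0.13). Without leukemic library 2 the chains split into 20 lower and 14 higher, with a median of -0.03, beside -0.012 for all genes tested. Without leukemic libraries 1 and 2 the chains as a family were no longer lower (values in the last section). With limma and Benjamini-Hochberg adjustment over all genes tested, 0 of 34 chains and 0 of 11214 genes (0%) had an adjusted p under 0.05. The lowest adjusted p of a chain was 0.695, and the lowest of any gene 0.144. At an unadjusted p under 0.05, 4 of 34 chains were lower (11.8%), beside 4.13% of all genes tested, and 0 were higher, beside 2.49%. Over all genes these unadjusted counts were 463 lower and 279 higher, but 725 and 171 when each library was rescaled to one sum and 608 and 234 with upper-quartile scaling. The groups did not overlap, with every leukemic value below the lowest control value, for 2 chains (5.88%), beside 2.9% of all genes tested, and with every leukemic value above the highest control value for 0 chains, beside 0.954%.

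**Figure D2:**
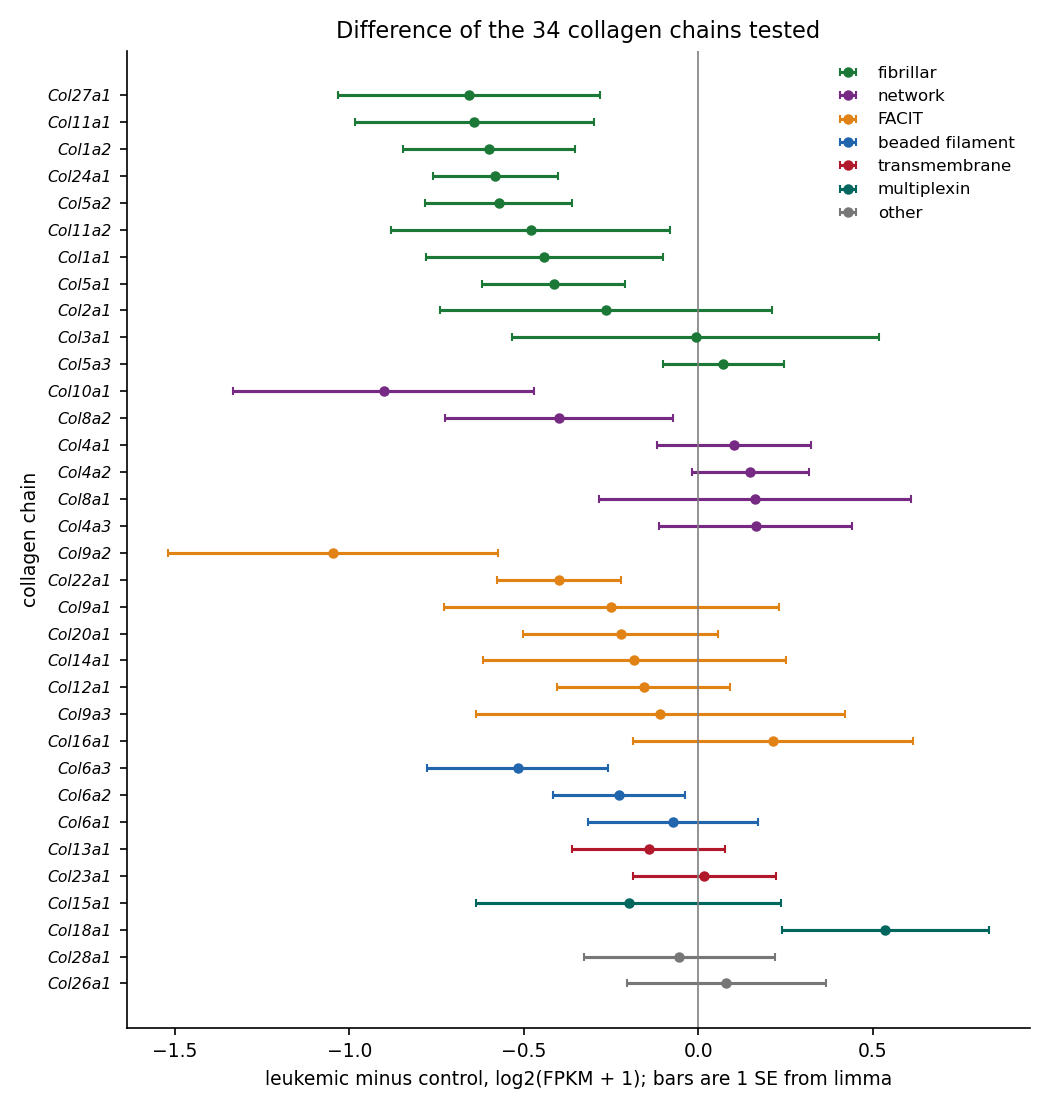
Leukemic minus control difference of each of the 34 collagen chains tested, in log2(FPKM + 1), with bars of 1 SE from limma, grouped by collagen class. Of the 11 fibrillar chains 10 lie left of 0, and the bars of Col3a1 and Col9a3 are the widest.

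Collagen as a whole took 4.50%, 1.59%, 3.71% and 6.13% of summed FPKM in leukemic libraries 1 to 4, against 4.67%, 5.26%, 5.18% and 5.22% in control libraries 1 to 4. The leukemic libraries ranged on both sides of the control values, and leukemic library 2 was the lowest. The mean share was 3.98% ± 1.89 in leukemic cells and 5.08% ± 0.278 in control cells (SD, n = 4 each). The spread in the leukemic group was larger than the difference between the means. That difference was -1.1 percentage points, -0.301 without leukemic library 2 and -1.81 without leukemic library 4.

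The fibrillar chains of bone were lower on average in leukemic cells, and 0 of 5 passed the test. All 5 chains of this group (Col1a1, Col1a2, Col5a1, Col5a2 and Col24a1) had a lower leukemic mean, with differences from -0.60 to -0.41 and a median of -0.57 on the log2 scale. Their median without leukemic library 2 was -0.42, still with 5 of 5 lower. Without leukemic libraries 1 and 2, 4 of 5 were lower and Col1a1 was higher (0.042), with a median of -0.34. Leukemic library 2 was the lowest of the 8 libraries for all 5. Of the 7 osteoblast markers, 1 had a higher leukemic mean on the log2(FPKM + 1) scale (Bglap, 0.20). The rest had a lower one, from -0.42 (Sp7) to -0.025 (Spp1). The part of these markers in the differences of the bone chains was not tested.

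Type I collagen, the main protein of bone matrix, is a trimer of the chains made by Col1a1 and Col1a2. Col1a1 (chr11:94936224-94953042) had 5265, 3228, 6305 and 10299.97 FPKM in leukemic libraries 1 to 4, against 8706, 6631, 8792 and 7389.51 FPKM in control libraries 1 to 4. Leukemic library 4 was the highest of all 8 and leukemic library 2 the lowest, and the leukemic range held all control values. The difference was -0.44 (SE 0.340, adjusted p = 0.74), with means of 6275 ± 2972 FPKM in leukemic cells and 7880 ± 1051 FPKM in control cells. With leukemic library 2 left out it was -0.16, and with leukemic library 4 left out -0.72.

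Col1a2 (chr6:4505618-4541543) had 3428, 2909, 3686 and 5556 FPKM in leukemic libraries 1 to 4, against 5449, 5731, 6152 and 5607 FPKM in control libraries 1 to 4. Only leukemic library 4 reached the control range, and the control libraries lay close together. Its difference was -0.60 (SE 0.246, unadjusted p = 0.0343, adjusted p = 0.695), with means of 3895 ± 1154 FPKM in leukemic cells and 5735 ± 301.3 FPKM in control cells. Without leukemic library 2 the difference was -0.47 and the unadjusted p 0.0714, and without leukemic libraries 1 and 2 the difference was -0.34.

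The balance between the chains of type I collagen was the one ratio tested. Col1a1 over Col1a2 was 1.54, 1.11, 1.71 and 1.85 in leukemic libraries 1 to 4, against 1.598, 1.16, 1.43 and 1.32 in control libraries 1 to 4. The groups overlapped, and the mean log2 ratio differed by 0.16 between leukemic and control (two-sided exact permutation test over all 70 splits, p = 0.429, where the smallest possible is 0.0286). Without leukemic library 2 it differed by 0.311 (exact permutation p = 0.0857), without leukemic library 4 by 0.0647 (exact permutation p = 0.7143), and without control library 2 by 0.0788.

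Type V collagen is built into type I fibrils and limits their width. Col5a2 (chr1:45374331-45503282) had 160, 116, 171 and 211 FPKM in leukemic libraries 1 to 4, against 222, 274, 205 and 265 FPKM in control libraries 1 to 4. Leukemic library 4 lay just above the lowest control library, and the other three lay below all control libraries. The difference was -0.57 (SE 0.211, unadjusted p = 0.0212, adjusted p = 0.695), with means of 164.5 ± 39.1 FPKM in leukemic cells and 241.5 ± 33.4 FPKM in control cells. Its partner Col5a1 had 59.1, 52.1, 52.5 and 71.3 FPKM in leukemic libraries 1 to 4, against 81.8, 107.1, 63.7 and 66.1 FPKM in control libraries 1 to 4, a difference of -0.41 (SE 0.205, adjusted p = 0.695). The groups overlapped through leukemic library 4. Without control library 2 the difference of Col5a1 was -0.26, and without leukemic libraries 1 and 2 that of Col5a2 was -0.34. The third type V chain, Col5a3, was lower in level and did not share this pattern: it averaged 9.69 ± 0.913 FPKM in leukemic cells and 9.22 ± 1.39 FPKM in control cells, a difference of 0.07.

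Col24a1 (chr3:145292472-145552013) encodes a minor fibrillar chain found in developing bone. It had 3.34, 2.42, 3.47 and 3.83 FPKM in leukemic libraries 1 to 4, against 5.28, 5.73, 5.49 and 4.86 FPKM in control libraries 1 to 4. The highest leukemic value was below the lowest control value, as in few genes (given above). The means were 3.27 ± 0.600 FPKM in leukemic cells and 5.34 ± 0.369 FPKM in control cells. The difference was -0.58 (SE 0.179, unadjusted p = 0.00848, adjusted p = 0.695), the smallest unadjusted p among the chains. At this low level the log2(FPKM + 1) scale understates the change, and the depth is not given, so counting error cannot be set beside it. Without leukemic library 2 its difference was -0.48, and without leukemic libraries 1 and 2 it was -0.45.

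**Figure D3:**
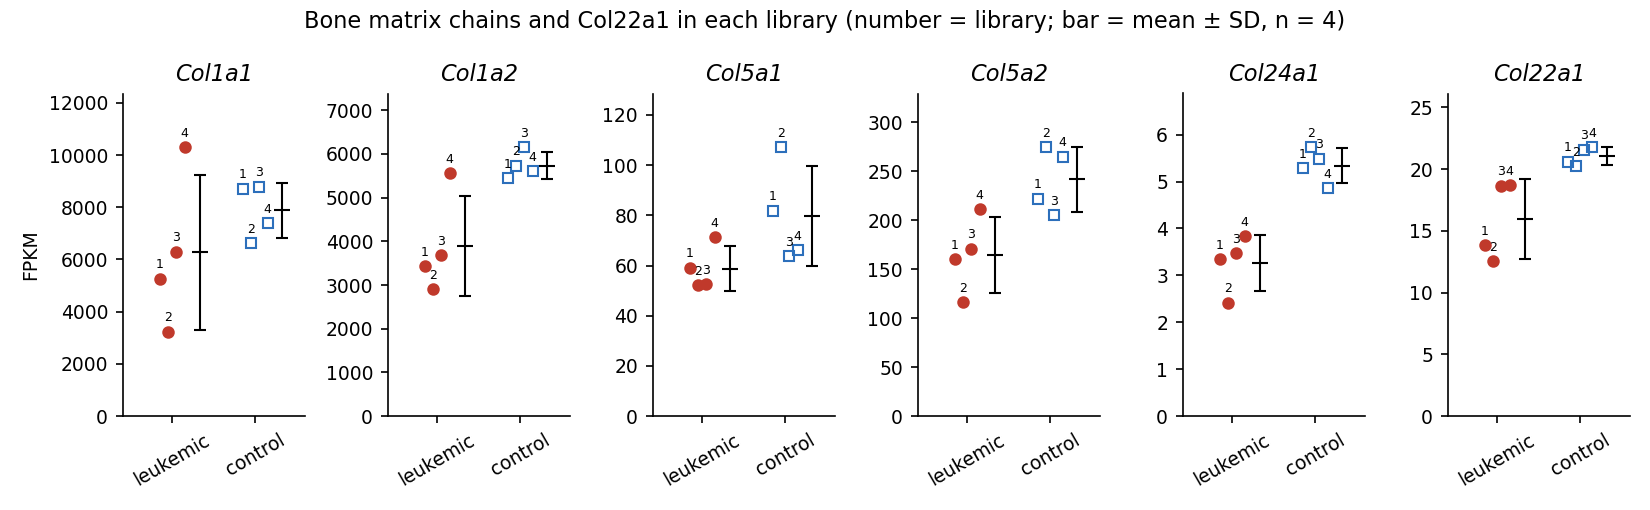
FPKM of the 5 bone matrix chains and of Col22a1 in each library, numbered by library, with the mean and SD to the right of the points (4 leukemic libraries at left, 4 control libraries at right of each panel). The groups do not overlap for Col24a1 and Col22a1, and leukemic library 2 is the lowest point in every panel.

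Col3a1, the fibrillar chain of extensible tissues such as vessel wall and skin, was made at a lower level than type I. It had 276, 205, 297 and 792 FPKM in leukemic libraries 1 to 4, against 429.76, 543, 119.86 and 487 FPKM in control libraries 1 to 4, a difference of -0.01 (SE 0.525, adjusted p = 0.998). Control library 3 was the lowest of all 8 and leukemic library 4 the highest. Control library 3 was also the lowest for 6 of 9 fibroblast and tendon markers, whose sum was 4363, 2964, 5114 and 3661 FPKM in leukemic libraries 1 to 4 and 4259, 3516, 1448 and 3961 FPKM in control libraries 1 to 4. All 9 of these markers had a higher leukemic mean on the log2(FPKM + 1) scale, though in FPKM that of Cd34 was lower (18.07 against 19.85). Without control library 3, 6 of the 9 were higher and 3 lower. The part of these markers in the level of Col3a1 was not tested.

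On the log2 scale the chains of cartilage were lower on average in leukemic cells too, but 1 library carried much of that. This group was Col2a1, Col9a1, Col9a2, Col9a3, Col10a1, Col11a1, Col11a2 and Col27a1. All 8 chains had a lower leukemic mean on the log2(FPKM + 1) scale, with a median difference of -0.56. In FPKM the leukemic mean was the higher one for Col9a1 (553.1 against 544) and Col9a3 (545.7 against 472.1). Leukemic library 2 was the lowest of the 8 libraries for all 8 chains. Without it, 5 of 8 were lower, the median was -0.17, and Col2a1 (0.25), Col9a1 (0.29) and Col9a3 (0.52) had the other sign. Without leukemic libraries 1 and 2, 6 of 8 were lower, with a median of -0.30. Leukemic library 1, at the other end, was the highest of the 8 libraries for 3 of these chains.

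Most of the chondrocyte markers followed the same libraries. Of 8 markers, 6 were lowest in leukemic library 2 and 5 were highest in leukemic library 1. Ucma and Snorc were lowest in leukemic library 4. On the log2(FPKM + 1) scale 4 of the 8 had a lower leukemic mean and 4 a higher one, with a median of -0.06. The higher ones were Sox9 (0.25), Cnmd (0.15), Ucma (0.76) and Snorc (0.94). Acan, the core protein of the large cartilage proteoglycan, was among the lower ones (-0.39). It had 167.0, 52.5, 126 and 147 FPKM in leukemic libraries 1 to 4, against 116, 170.1, 141 and 176 FPKM in control libraries 1 to 4. Summed over the 8 markers, the level was 8084, 2553, 4064 and 4094 FPKM in leukemic libraries 1 to 4, against 2900, 3849, 4124 and 4330 FPKM in control libraries 1 to 4. None of these markers was at 0 in any library, and their part in the differences of the cartilage chains was not tested.

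**Figure D4:**
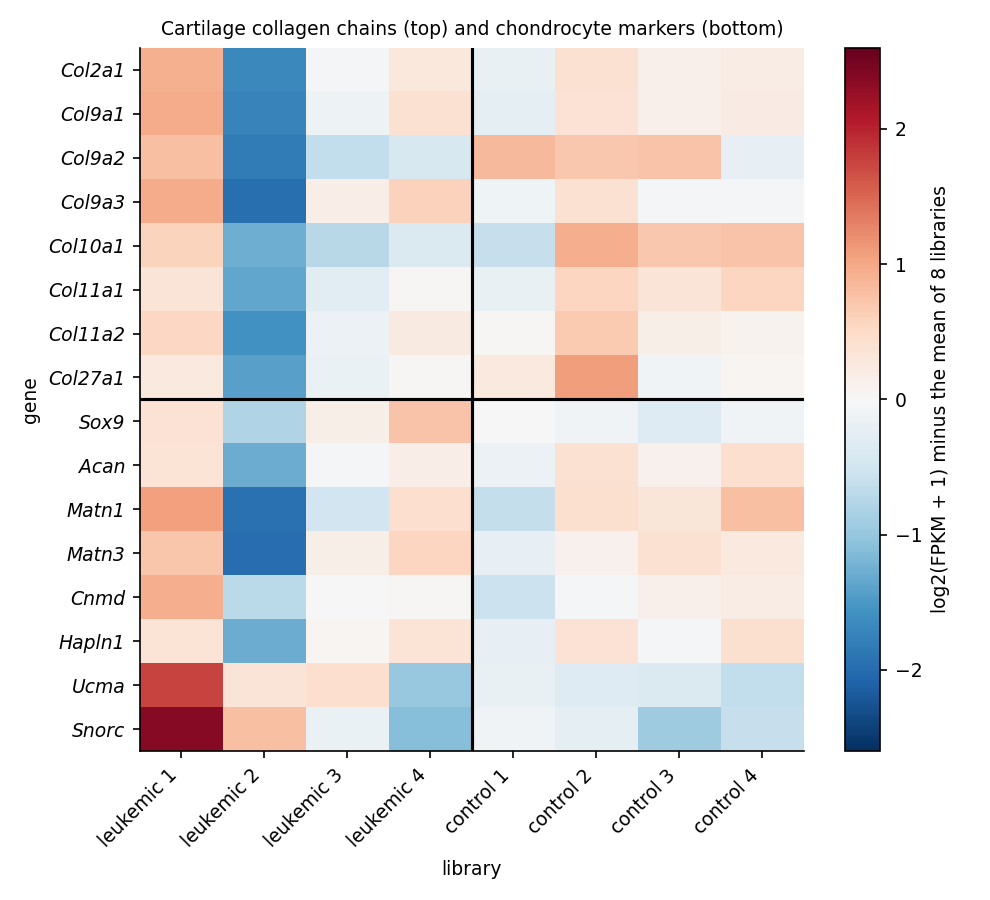
Deviation of each of the 8 cartilage collagen chains and 8 chondrocyte markers from its mean over the 8 libraries, on the log2(FPKM + 1) scale, with leukemic libraries at left and control libraries at right. Leukemic library 2 is the lowest for all 8 chains and for 6 of 8 markers, while Col9a2 and Col10a1 are low in leukemic libraries 3 and 4 as well.

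Col2a1 (chr15:97975602-98004724), the chain of type II collagen, had 10941, 1797, 5522 and 6914 FPKM in leukemic libraries 1 to 4, against 5004, 7585, 6293 and 6534 FPKM in control libraries 1 to 4. The leukemic libraries spanned a 6.09-fold range that held all control values. The difference was -0.26 (SE 0.476, adjusted p = 0.908). Bone chains over cartilage chains, as a ratio of summed FPKM, was 0.609, 2.46, 1.38 and 1.71 in leukemic libraries 1 to 4, against 2.08, 1.15, 1.67 and 1.41 in control libraries 1 to 4. The extremes of this ratio were leukemic libraries 1 and 2, with the control values between them.

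Type XI collagen is the fibril core on which type II assembles. Col11a1 had 487, 152, 316 and 393 FPKM in leukemic libraries 1 to 4, against 340.13, 573, 492 and 573 FPKM in control libraries 1 to 4, a difference of -0.64 (SE 0.343, adjusted p = 0.695). Col11a2 had 315, 72.5, 196 and 256 FPKM in leukemic libraries 1 to 4, against 222, 349.68, 244 and 231 FPKM in control libraries 1 to 4, a difference of -0.48 (SE 0.400, adjusted p = 0.76). Both were lowest in leukemic library 2, with overlapping groups. Col27a1, a fibrillar chain of growth-plate cartilage, had 38.3, 11.5, 28.3 and 32.7 FPKM in leukemic libraries 1 to 4, against 38.7, 69.7, 30.2 and 33.2 FPKM in control libraries 1 to 4. Its difference was -0.66 (SE 0.375, adjusted p = 0.695). Without leukemic library 2 the differences were -0.30 for Col11a1, -0.036 for Col11a2 and -0.297 for Col27a1, and without control library 2 that of Col27a1 was -0.402.

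The 3 chains of type IX collagen, the FACIT of cartilage, assemble in one trimer, yet their levels did not share one pattern. Col9a1 (chr1:24177589-24252738) had 959.54, 147, 453 and 653 FPKM in leukemic libraries 1 to 4, against 419.74, 639, 542 and 575 FPKM in control libraries 1 to 4. Col9a3 had 879.58, 115, 506 and 682 FPKM in leukemic libraries 1 to 4, against 415, 596, 434 and 443 FPKM in control libraries 1 to 4. Both had their highest value in leukemic library 1 and their lowest in leukemic library 2, and the differences were -0.25 (SE 0.480) and -0.11 (SE 0.529).

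Col9a2 (chr4:121039566-121055325) had a lower level and another order. It had 103, 15.9, 37.3 and 43.9 FPKM in leukemic libraries 1 to 4, against 107, 96.9, 99.6 and 50.4 FPKM in control libraries 1 to 4. Leukemic library 1 lay in the control range and the other three lay below every control library. The difference was -1.05 (SE 0.473, unadjusted p = 0.0503, adjusted p = 0.695), the largest of the 34 chains, with means of 49.9 ± 37.1 FPKM in leukemic cells and 88.5 ± 25.7 FPKM in control cells. It was -0.61 without leukemic library 2 and -1.05 without leukemic libraries 1 and 2.

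Ratios were then taken within each library. Col9a1 over Col2a1 was 0.0877, 0.0818, 0.0820 and 0.0945 in leukemic libraries 1 to 4, against 0.0839, 0.0843, 0.0861 and 0.0880 in control libraries 1 to 4. It stayed within a narrow band (SD of 0.0682 on the log2 scale over all 8 libraries) while Col2a1 itself varied 6.09-fold. Col9a2 over Col9a1 was 0.107, 0.108, 0.0823 and 0.0671 in leukemic libraries 1 to 4, against 0.255, 0.152, 0.184 and 0.0877 in control libraries 1 to 4. The log2 SD of that ratio was 0.647, and the groups overlapped through control library 4. These ratios were chosen after the values had been seen and are given without a test.

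Col10a1 (chr10:34389981-34397085), the marker of hypertrophic cartilage, had 909.12, 251, 368 and 468 FPKM in leukemic libraries 1 to 4, against 402, 1179, 991 and 1026 FPKM in control libraries 1 to 4. Control library 1 lay with the leukemic libraries, and leukemic library 1 lay near the other control libraries. The difference was -0.90 (SE 0.431, unadjusted p = 0.0619, adjusted p = 0.695), with means of 499 ± 287 FPKM in leukemic cells and 899 ± 342 FPKM in control cells. It was -0.63 without leukemic library 2 and -1.004 without leukemic libraries 1 and 2. Relative to Col2a1, Col10a1 stood at 0.0831, 0.140, 0.0666 and 0.0677 in leukemic libraries 1 to 4, against 0.0803, 0.155, 0.158 and 0.157 in control libraries 1 to 4. By this ratio leukemic library 2 was near 3 of the control libraries, and control library 1 was among the other leukemic libraries.

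**Figure D5:**
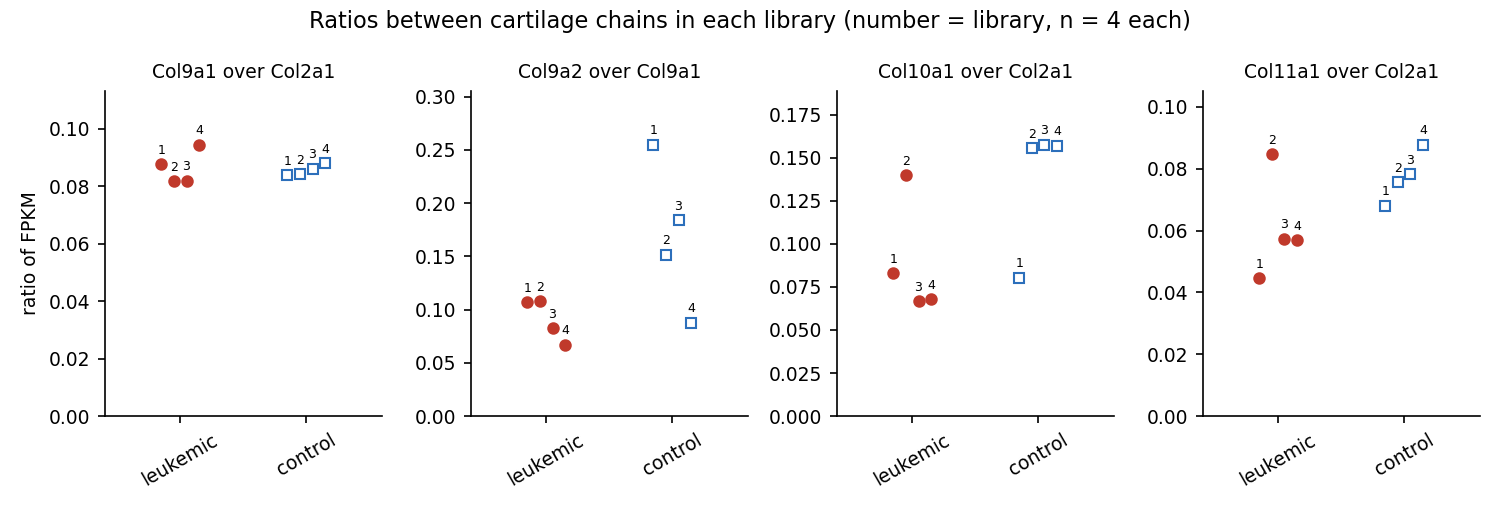
Ratios of FPKM between cartilage chains in each library, numbered by library, with leukemic libraries at left and control libraries at right of each panel (4 each). Col9a1 over Col2a1 lies between 0.0818 and 0.0945 in all 8 libraries, whereas Col9a2 over Col9a1 and Col10a1 over Col2a1 spread widely and overlap between the groups.

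The chains of basement membranes mostly had a slightly higher leukemic mean. Of 8 listed (Col4a1 to Col4a6, Col15a1 and Col18a1) 5 could be tested, and 4 of these were higher in leukemic cells, with a median difference of 0.15 and 0 of 5 past the test. Type IV collagen forms the sheet itself. Col4a1 had 22.9, 38.9, 33.7 and 31.1 FPKM in leukemic libraries 1 to 4, against 35.7, 25.9, 34.3 and 22.1 FPKM in control libraries 1 to 4, a difference of 0.10 (SE 0.221, adjusted p = 0.928). The sign turned, to -0.029, when each library was rescaled to one sum, and to -0.002 with quantile normalization. Col4a2, its partner in the trimer, had 20.5, 21.8, 24.3 and 21.6 FPKM in leukemic libraries 1 to 4, against 24.1, 20.3, 18.8 and 16.6 FPKM in control libraries 1 to 4, a difference of 0.15 (SE 0.167, adjusted p = 0.832). The groups overlapped for both chains.

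Col4a1 and Col4a2 lie head to head on chromosome 8 and share a promoter region. The RefSeq start sites taken here, at 11312826 on the - strand and 11312805 on the + strand (GRCm38.p6), let the transcripts overlap by 22 bases. The gene span of Col4a1 runs on to 11312889, so the overlap can be longer than this. Reads from the shared stretch cannot be assigned by strand since the library kit does not mark it. The other type IV chains were low: Col4a3 averaged 1.32 ± 0.415 FPKM in leukemic cells and 1.16 ± 0.811 FPKM in control cells, and Col4a4, Col4a5 and Col4a6 did not reach the level needed for the test. Endothelial cells are a major source of type IV collagen in bone marrow. Of the 6 endothelial markers listed, 5 were under 1 FPKM in every library, with none high enough to be tested. The sums for pericytes and smooth muscle and for Schwann cells, given above, were higher. The part of any of these cell types in the level of the type IV chains was not tested.

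Type VIII collagen forms short-chain networks, for example in vessel walls and the cornea. Col8a1 had 33.1, 95.5, 69.3 and 89.9 FPKM in leukemic libraries 1 to 4, against 78.8, 34.1, 124 and 37.2 FPKM in control libraries 1 to 4. Col8a2 had 13.6, 12.4, 16.2 and 19.1 FPKM in leukemic libraries 1 to 4, against 26.2, 35.4, 10.5 and 16.9 FPKM in control libraries 1 to 4. The differences were 0.16 (SE 0.448) and -0.40 (SE 0.327), and neither passed. That of Col8a2 was -0.14 without control library 2 and -0.70 without control library 3 (unadjusted p = 0.0278). The control library with the highest Col8a1 had the lowest Col8a2, and the one with the lowest Col8a1 the highest Col8a2. Col8a1 over Col8a2 ranged from 2.44 to 7.71 in leukemic libraries and from 0.965 to 11.9 in control libraries.

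Among the FACIT chains outside cartilage, Col22a1 had non-overlapping groups. Type XXII collagen is known from tissue junctions such as that of muscle and tendon. Col22a1 (chr15:71795795-72150979) had 13.8, 12.6, 18.7 and 18.7 FPKM in leukemic libraries 1 to 4, against 20.6, 20.2, 21.6 and 21.8 FPKM in control libraries 1 to 4. The control libraries spanned little, and all 4 leukemic libraries lay below them. The means were 15.9 ± 3.21 FPKM in leukemic cells and 21.0 ± 0.742 FPKM in control cells, a difference of -0.40 (SE 0.178, unadjusted p = 0.0486, adjusted p = 0.695). Without leukemic libraries 1 and 2 it was -0.16. Over 4 skeletal muscle markers the sum was 4.63 to 9.40 FPKM in leukemic libraries and 3.98 to 7.33 FPKM in control libraries. Ckm and Myh4 were under 1 FPKM in every library. The sum of 9 fibroblast and tendon markers was 2964 to 5114 FPKM in leukemic libraries and 1448 to 4259 FPKM in control libraries. The part of either set of markers in the level of Col22a1 was not tested.

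Col12a1, which coats fibrils of tendon and periosteum, had 79.7, 39.7, 68.3 and 84.5 FPKM in leukemic libraries 1 to 4, against 59.0, 78.9, 70.2 and 87.1 FPKM in control libraries 1 to 4, a difference of -0.16 (SE 0.249). Col16a1, another fibril-associated chain, had 48.6, 19.7, 45.7 and 71.6 FPKM in leukemic libraries 1 to 4, against 44.4, 55.5, 19.6 and 35.5 FPKM in control libraries 1 to 4, a difference of 0.21 (SE 0.401). The groups overlapped for both. Col14a1, a FACIT of tendon and skin, averaged 1.91 ± 0.607 FPKM in leukemic cells and 2.77 ± 1.90 FPKM in control cells. Col20a1 averaged 0.988 ± 0.510 FPKM in leukemic cells and 1.35 ± 0.653 FPKM in control cells, and Col19a1 was at 0.28 FPKM or below in every library.

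The beaded-filament chains of type VI collagen, which surrounds cells in most connective tissues, were abundant. Col6a1 had 796, 405, 703 and 763 FPKM in leukemic libraries 1 to 4, against 727, 632, 580.49 and 791 FPKM in control libraries 1 to 4, a difference of -0.07 (SE 0.244). Col6a2 had 364, 261, 338 and 367 FPKM in leukemic libraries 1 to 4, against 379, 435, 315 and 427 FPKM in control libraries 1 to 4, a difference of -0.23 (SE 0.189). These chains are neighbours on chromosome 10, and both were lowest in leukemic library 2. Without that library the difference of Col6a2 was -0.12.

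Col6a3, the third chain of the type VI trimer, had 94.8, 43.2, 70.6 and 76.4 FPKM in leukemic libraries 1 to 4, against 80.7, 95.9, 89.3 and 137 FPKM in control libraries 1 to 4. The difference was -0.52 (SE 0.259, unadjusted p = 0.073, adjusted p = 0.695), and without leukemic library 2 it was -0.30. Col6a3 over Col6a1 was 0.119, 0.107, 0.1004 and 0.1001 in leukemic libraries 1 to 4, against 0.111, 0.152, 0.154 and 0.173 in control libraries 1 to 4. Leukemic library 1 exceeded control library 1, so the ranges overlapped.

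Col6a4, which encodes a chain related to that of Col6a3, was near the floor. It had 0.41, 0.52, 0.41 and 0.76 FPKM in leukemic libraries 1 to 4 and 0.17 FPKM in control library 1, and was listed at 0 in control libraries 2 to 4. Its groups did not overlap, with the leukemic values the higher ones, but the gene was under the level needed for the test. The authors' deposited table gives it a log2 ratio of 3.69. How many reads lie behind values under 1 FPKM is unknown. Col6a5 was at 0.51 FPKM or below in every library, and Col6a6 was not analysed here.

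The remaining chains were low, and none passed the test. The transmembrane chain Col13a1, which sits at sites of cell adhesion, had 9.45, 8.52, 11.1 and 16.4 FPKM in leukemic libraries 1 to 4, against 14.7, 12.5, 11.8 and 10.4 FPKM in control libraries 1 to 4, a difference of -0.14 (SE 0.219). Col23a1 and Col25a1, of the same class, averaged near 1 FPKM, and Col17a1, a chain of epithelial hemidesmosomes, was at 0.29 FPKM or below in every library.

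Col15a1 and Col18a1 are multiplexins, collagens of the basement membrane zone that carry heparan or chondroitin sulfate chains. Col18a1, whose end fragment is endostatin, averaged 8.51 ± 1.15 FPKM in leukemic cells and 5.98 ± 2.77 FPKM in control cells. The difference of 0.54 (SE 0.296, unadjusted p = 0.0995, adjusted p = 0.695) was the highest of the 34 chains tested, and 0.24 without control library 3. Control library 3, at 2.55 FPKM, was the lowest and control library 1, at 9.29 FPKM, lay in the leukemic range. Col15a1 averaged 5.77 ± 2.599 FPKM in leukemic cells and 7.28 ± 4.13 FPKM in control cells. Col26a1 and Col28a1 differed by 0.08 and -0.05, and Col7a1, the anchoring fibril of skin, was at 0.16 FPKM or below in every library.

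Genes that make, cross-link, cut or bind collagen were read from a list of 60, of which 56 could be tested. With limma, 0 of 56 had an adjusted p under 0.05, 32 were lower and 24 higher in leukemic cells, and the median difference was -0.14. Over all 11214 genes tested, 53.6% were lower and the median was -0.03. At an unadjusted p under 0.05, 5 of 56 were lower and 2 higher, beside 4.13% lower and 2.49% higher of all genes tested. By role, 10 of 19 genes of hydroxylation, glycosylation and folding, 4 of 4 of secretion and 4 of 5 of cross-linking had a lower leukemic mean. So did 4 of 7 of propeptide processing, 4 of 8 of degradation, 2 of 6 receptors and 4 of 7 of transcription. Plod2, which hydroxylates the lysines of the collagen ends that later form stable cross-links, had 42.6, 40.0, 38.8 and 49.4 FPKM in leukemic libraries 1 to 4, against 80.2, 96.3, 68.9 and 76.1 FPKM in control libraries 1 to 4. The highest leukemic value was below the lowest control value, and the difference was -0.89 (SE 0.168, unadjusted p = 0.000308, adjusted p = 0.314). P3h2, a prolyl 3-hydroxylase, had 10.4, 12.8, 9.40 and 8.44 FPKM in leukemic libraries 1 to 4, against 20.7, 32.1, 15.2 and 25.2 FPKM in control libraries 1 to 4, a difference of -1.08 (SE 0.237, adjusted p = 0.402). The groups did not overlap.

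Loxl2, an oxidase that starts cross-links, had 10.7, 5.86, 8.23 and 9.52 FPKM in leukemic libraries 1 to 4, against 13.2, 20.6, 14.2 and 15.1 FPKM in control libraries 1 to 4, a difference of -0.82 (SE 0.218, adjusted p = 0.587). Creb3l1, the membrane-bound factor that drives Col1a1 transcription in osteoblasts, had 24.3, 26.4, 27.8 and 33.5 FPKM in leukemic libraries 1 to 4, against 40.1, 60.3, 41.2 and 41.0 FPKM in control libraries 1 to 4. Its difference was -0.67 (SE 0.189, adjusted p = 0.631). For both, every leukemic value was below every control value, as in 2.9% of all genes tested.

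On the higher side, Mmp9, a gelatinase made in bone mainly by osteoclasts, had 29.96, 41.7, 66.1 and 100.5 FPKM in leukemic libraries 1 to 4, against 10.2, 10.8, 45.2 and 11.5 FPKM in control libraries 1 to 4. Control library 3 lay among the leukemic values, and the difference was 1.72 (SE 0.493, adjusted p = 0.639). Over 4 osteoclast markers the sum was 215 to 284 FPKM in leukemic libraries and 180.0 to 294 FPKM in control libraries, 2 of them (Ocstamp and Dcstamp) were under 1 FPKM in every library, and their part in the level of Mmp9 was not tested. Itga1, the collagen-binding integrin chain, had 8.45, 10.8, 15.0 and 15.2 FPKM in leukemic libraries 1 to 4, against 9.73, 5.18, 7.81 and 8.14 FPKM in control libraries 1 to 4. The difference was 0.61 (SE 0.242, adjusted p = 0.695), and the groups overlapped through control library 1.

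Collagen transcripts are long, and the libraries differed in how level went with transcript length. The median transcript length was 5579 bases for the 34 chains tested and 3054 bases for all genes tested with a length. Across genes, which are not independent replicates, Spearman's rho of deviation from the mean level with length was -0.354, -0.346, -0.113 and 0.327 in leukemic libraries 1 to 4, against 0.039, 0.144, 0.124 and 0.350 in control libraries 1 to 4. This measure was lowest in leukemic libraries 1 and 2. A ratio between chains of unlike length can carry this trend, and the ratios given above were not corrected for it. With the length trend removed from each library, 5 of 5 bone chains and 8 of 8 cartilage chains were lower in leukemic cells. Their medians were -0.44 and -0.43, beside -0.57 and -0.56 as reported. Of the 34 chains 23 were lower, with a median of -0.12, beside 25 and -0.21 as reported. In limma, Col1a2 and Col22a1 then no longer had an unadjusted p under 0.05, while Col9a2 (lower) and Col18a1 (higher) did.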

How the data were processed

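RNA was measured in 8 libraries of osteoblastic cells, which the labels' disease state splits into 4 leukemic and 4 control. The RNA integrity number exceeded 6.5 and the SMART-Seq v4 kit, which leaves strand unmarked, was used, per the labels' protocols. Tools named in the submitters' processing notes are RSEM 1.2.8, HISAT2 2.0.4, Bowtie2 2.2.5 and DESeq2, with build GRCm38.p6 and no settings. The authors deposited FPKM with 2 decimals for 17068 genes, per the file headers. The authors deposited a log2 ratio as well, quoted for 1 gene only, whose derivation no source used here gives. FPKM are not counts. A count model was therefore not fitted, depth is unknown, and counting error is not shown. RSEM shares fragments between similar or overlapping genes, so such genes can exchange signal.

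Values were taken as log2(FPKM + 1). Genes needed 1 FPKM or more in 4 or more libraries (11214 passed, 5854 did not). Leukemic was set against control by limma 3.58.1 in R 4.3.3, using all 8 libraries, variance moderation along a mean-variance trend and no covariates. Tests were two-sided with Benjamini-Hochberg adjustment over all genes tested at 0.05. SDs are over 4 libraries. The fit was tested on simulated data with 200 genes changed. Only the ratio of Col1a1 to Col1a2 had its own test (scipy 1.17.1).

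Every chain is named. Chains with a mean of at least 10 FPKM, an unadjusted p under 0.05 or groups that do not overlap are given in every library, and the others by mean or range. Of the pathway list, at most 6 members with the smallest unadjusted p are named. The members and all lists were chosen with earlier results of these data known. The marker lists were those of osteoblasts, chondrocytes, fibroblasts and tendon, endothelium, pericytes and smooth muscle, Schwann cells, skeletal muscle, leukocytes and osteoclasts. Gene coordinates and sequences are from RefSeq (GRCm38.p6), and transcript lengths from GENCODE. The gene start given for Col9a1 differs from the start site of its window. Alternatives changed the pseudocount, the filter, the scaling, the variance model, sample weights, a length trend, a replicate block and the libraries used.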

Additional observations from a re-analysis of the deposited data

Results flagged for a closer look

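Among 68 groups of 4 libraries (34 chains in each of the leukemic and control groups), 3 had 1 library whose gap to its nearest neighbour, as a share of the group's range, was past the critical value of Dixon's test. Chance alone is expected to mark about 1 in 20 groups. Col3a1 stood at 792.05 FPKM in leukemic library 4, against 205 to 297 FPKM in the other leukemic libraries (gap 0.843 of the range). Col11a2 stood at 349.68 FPKM in control library 2, against 222 to 244 FPKM in the other control libraries (gap 0.832). Col9a3 stood at 595.59 FPKM in control library 2, against 415 to 443 FPKM in the other control libraries (gap 0.845). Control library 2 was also the highest of the 8 libraries for 10 of the 34 chains tested.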

How the results depend on the processing

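In 22 alternatives to the analysis, 0 chains passed an adjusted p of 0.05. The smallest adjusted p among the chains lay between 0.0989 and 0.851. Over all genes the number at an adjusted p under 0.05 was 0 as reported, 1 with no filter, 2 after rescaling each library to one sum, 3 with upper-quartile scaling, 3 with quantile normalization, 3 with the length trend removed, 6 with array weights, and 0 to 2 leaving out 1 library (2 without leukemic library 4). The labels number the libraries 1 to 4 in both groups. Same-numbered libraries deviated together with correlations of 0.122, -0.047, -0.072 and 0.22, beside -0.295 to 0.217 for libraries with unlike numbers. These values cannot settle whether same-numbered libraries shared more than their number. With that number as a block, 0 genes passed, and 1 passed with the block and the length trend removed. Rescaling to one sum moved the median of all genes to -0.15, beside -0.03 as reported. Of the 25 tested chains given in full, library by library, 14 kept their sign under all 22 alternatives, Col1a2, Col5a2, Col24a1, Col22a1, Col9a2 and Col10a1 among them.

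Signs turned for Col4a1 when each library was rescaled to one sum (-0.029) and with quantile normalization (-0.002), for Col3a1 with the length trend removed, with or without the block (0.099), for Col9a3 with array weights (0.12), for Col5a3 with rescaling (-0.051) and upper-quartile scaling (-0.001), for Col26a1 with rescaling (-0.032), and for Col28a1 with the length trend removed, with or without the block (0.009). Leaving out 1 library, the differences ranged from -0.509 to 0.234 for Col3a1, -0.618 to 0.25 for Col2a1, -0.1 to 0.512 for Col8a1, -0.024 to 0.244 for Col4a1, -0.611 to 0.289 for Col9a1, -0.449 to 0.524 for Col9a3, -0.279 to 0.079 for Col12a1, -0.174 to 0.151 for Col6a1, -0.007 to 0.145 for Col5a3, -0.074 to 0.36 for Col26a1, -0.205 to 0.173 for Col28a1 and -0.073 to 0.566 for Col16a1. Without leukemic libraries 1 and 2 the median of the chains was 0.008 (17 of 34 lower), with Col1a1 at 0.042, Col3a1 at 0.504, Col9a1 at 0.016, Col9a3 at 0.33, Col12a1 at 0.056, Col6a1 at 0.111, Col28a1 at 0.054 and Col13a1 at 0.126. The causes were not tested. At an unadjusted p under 0.05, between 1 and 7 chains were lower, with Col24a1 in 19 of the 22 alternatives, Col5a2 in 18, and Col1a2, Col9a2 and Col22a1 in 10 each. At most 1 was higher: Col18a1 in 3 alternatives (the length trend removed, with and without the block, and without control library 1), Col9a3 without leukemic library 2 and Col6a4 with no filter. Depth is unknown, so chains under 1 FPKM could not be judged.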
